A study of Mus musculus with 24 samples.

Results

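The genes described here carry fatty acids into the heart cell and oxidise them. The set was chosen by name, as the count-table rows whose symbol is in a list of 44 genes for fatty acid uptake, activation, the carnitine shuttle, beta-oxidation and targets of the PPAR receptors. All 44 were found among 52724 gene rows, and 43 had enough counts to be tested. RNA came from whole hearts of mice in a study of FKBP12 deficiency and dilated cardiomyopathy. FKBP12, the product of Fkbp1a, is an immunophilin that binds calcium release channels. The 4 genotypes were FKl/l (floxed Fkbp1a, no Cre named in the label), MHC CRE Only (Cre, with floxed alleles not named in the label), FKl/l MCK+ (floxed, Cre under the muscle creatine kinase promoter) and FKl/l MHC+ (floxed, Cre under the α-myosin heavy chain promoter). In the design text these promoters differ in when in development Cre appears and in how much is made. Both promoters are known for activity in muscle cells, and a whole heart also holds other cells, in which deletion was not measured here. Age, sex and strain are not given in the labels. There were 6 libraries of every genotype, 3 per batch in 2 batches, and names such as FKl/l 1-3 give the genotype, the batch and the number. Whether libraries are separate animals is not in the labels, and p-values then measure only the spread between libraries, which may be technical.

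The heart draws most of its energy from long-chain fatty acids. Lipoprotein lipase frees them from circulating lipid, CD36 and FATP proteins help them across the membrane, and FABP3 binds them in the cytosol. Acyl-CoA synthetases activate them, the carnitine shuttle carries them into mitochondria, and beta-oxidation shortens the chain in repeated steps of dehydrogenation, hydration, dehydrogenation and thiolysis. Electrons from the first step pass to the respiratory chain through electron transfer flavoprotein. The nuclear receptors PPARα and PPARδ with the coactivators PGC-1α and PGC-1β control many of these genes, and malonyl-CoA, made by ACACB and removed by MLYCD, restrains the entry of fatty acids into mitochondria.

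Each library held between 27799403 and 40412640 counts in gene rows, of which the 44 genes took 1.41 to 1.86%. Levels below are CPM values, in which a count is divided by the library's total after scaling by the trimmed mean of M values (TMM). Fkbp1a stood at 130 ± 10.1 CPM (SD, n = 6) in FKl/l, 122 ± 20.5 in MHC CRE Only, 65.0 ± 10.7 in FKl/l MCK+ and 59.1 ± 12.6 in FKl/l MHC+. The lowest value of its genotype, 81.7 CPM, was in the library labelled MHC CRE Only 1-3, where the other 5 had 121.7 or more. Cardiomyocyte markers were abundant everywhere (lowest library for Myh6, 15260 CPM). Summed lung and airway markers reached 483 CPM in MHC CRE Only 2-3 and 129 in FKl/l 1-1, against group medians of 12.1 or less. Results were therefore also computed without 3 libraries, namely FKl/l 1-1, MHC CRE Only 2-3 and the one labelled MHC CRE Only 1-3. The last also had the highest summed time-of-day markers of its genotype, 571 CPM against a group median of 307. FKl/l MCK+ 1-2 was not among the 3. It had the lowest summed level of the 44 genes of any library (14693 CPM), and summed fibroblast markers of 1001 CPM against a group median of 729. The part of these in the values below was not tested. In bulk tissue fewer cells of a type and less RNA per cell cannot be told apart.

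Levels were compared between genes only per kilobase of the principal transcript, here in FKl/l. Fabp3, the cytosolic carrier, was the highest at 2618 ± 190.2 CPM per kilobase (SD, n = 6). Etfb, a subunit of electron transfer flavoprotein, followed at 1027 ± 118, and Lpl, lipoprotein lipase, at 952 ± 157. On this length these 2 neighbours did not differ beyond their spread. The thiolase Acaa2 stood at 609 ± 39.5, the very long-chain dehydrogenase Acadvl at 380 ± 37.0 and the trifunctional protein subunit Hadhb at 343 ± 49.1, and the last 2 also lay within each other's spread on this length. The muscle carnitine palmitoyltransferase Cpt1b (161 ± 7.93) lay far above the liver form Cpt1a (7.71 ± 1.60). Among acyl-CoA synthetases Acsl1 led at 108 ± 33.0, with Acsl5 at 5.32 ± 1.16, Acsl6 at 3.07 ± 0.501, Acsl4 at 1.02 ± 0.156 and Acsl3 at 0.946 ± 0.127. The receptor genes were low, with Ppard at 9.16 ± 1.64 and Ppara at 3.08 ± 0.598. Slc27a6, a fatty acid transporter, was close to 0, with group means between 0.0399 and 0.111 CPM, and was the member left untested. The order depends on the length used. Per kilobase of all annotated exons Fabp3 and Etfb kept the first ranks, but Lpl stood at 374, below Etfb (788) and Acaa2 (609), and Hadhb at 106, below Acadvl (306) and at rank 14. Of the other genes named in this paragraph, Acsl1 (40.3), Ppard (3.99), Cpt1a (4.36) and Acsl6 (0.803) moved by over 1.5 times. Genes not named here moved as well, such as Echs1 (116 per kilobase of principal transcript, 21.8 of all exons) and Etfdh (129 and 41.0).

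**Figure D1:**
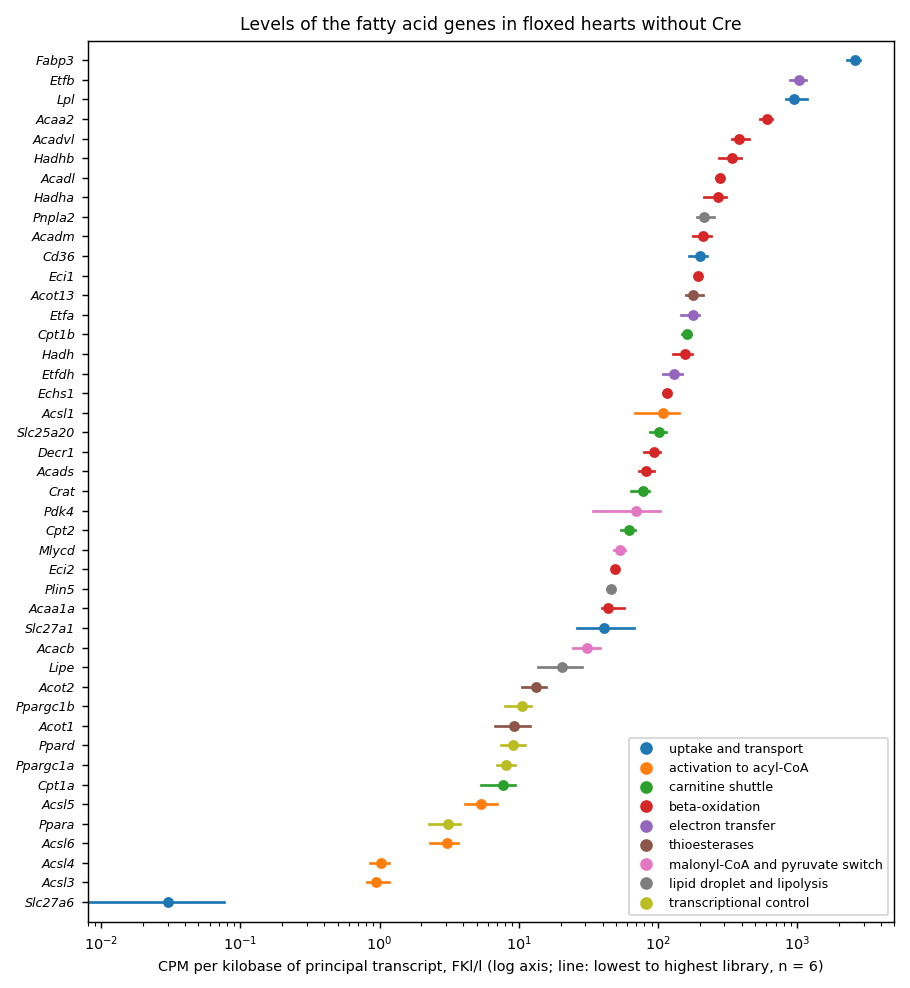
CPM per kilobase of principal transcript (log axis) for the 44 genes in the 6 FKl/l libraries, coloured by role; points are means, lines span the lowest to the highest library, and a line that reaches the left edge stands for a library at 0. Fabp3 is at 2618 and Slc27a6 at 0.0302.

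The 300-base windows from 250 bases before to 50 bases after the RefSeq start sites (GRCm38.p6) were available for 36 of the genes. They were searched on both strands for the element PPAR and RXR receptors bind as a pair, a direct repeat of AGGTCA with 1 base of any kind between copies. No window held an exact copy or a copy with 1 mismatch. With up to 2 mismatches 4 of 36 genes had a match (11.1%), as did 4.40% of 27025 genes. The 3 matches before a start site are shown because PPAR receptors are the textbook regulators of these genes, with the matched 13 bases in capitals, read 5′ to 3′ on the strand of the gene. The stretches are chr5:17835907-17835999 for Cd36, chr7:140116452-140116544 for Echs1 and chr9:55512268-55512360 for Etfa, each on the minus strand.
Cd36: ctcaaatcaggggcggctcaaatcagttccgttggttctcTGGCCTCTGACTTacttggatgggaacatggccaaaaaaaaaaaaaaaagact
Echs1: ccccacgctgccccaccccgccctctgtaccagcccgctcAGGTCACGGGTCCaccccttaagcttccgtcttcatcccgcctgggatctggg
Etfa: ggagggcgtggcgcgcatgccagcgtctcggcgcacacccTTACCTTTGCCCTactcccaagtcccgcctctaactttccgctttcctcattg
The Echs1 match is on the strand of the gene and the other 2 are on the opposite strand. A match of letters is a description and was not tested for binding.

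Against FKl/l, edgeR called none of the fatty acid genes in hearts with Fkbp1a deleted by either driver. With MCK-driven Cre, no gene of the 43 passed the test against FKl/l, where a gene is called at an edgeR adjusted p under 0.05 over 16018 genes (0.0499% of all genes tested were called). None was under an unadjusted p of 0.05 either (5.24% of all genes were), and DESeq2 (0.125% of all genes called) and limma voom called none. The median log2 fold change of the 43 was -0.04, against 0.00 over all genes. With α-MHC-driven Cre, none passed against FKl/l (1.71% of all genes were called). There 13 of 43 had an unadjusted p under 0.05 (30.2%, against 14.7% of all genes), 10 of them lower and 3 higher. The median was -0.07, against -0.00 for all genes, and 33 of 43 values were negative (50.8% of all genes were). DESeq2 called 2 genes lower (Echs1, adjusted p = 0.0287, and Acads, adjusted p = 0.0418), with 3.45% of all genes called, and limma voom called none. Against MHC CRE Only, 1 gene passed, Crat, which was lower (1.87% of all genes were called). There 14 of 43 had an unadjusted p under 0.05 (32.6%, against 15.8% of all genes), 11 lower and 3 higher, and the median was -0.08, against -0.02 for all genes. DESeq2 called 4 members there, Crat (adjusted p = 0.00327), Echs1 (0.0229) and Acacb (0.0342) lower and Acot13 (0.0401) higher (3.69% of all genes), and limma voom called Crat (0.0296). These comparisons share libraries, so their values stand side by side and are not independent.

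The precision of these values can be read from the intervals. In each of the 5 comparisons the 95% interval of all 43 genes lay within 2-fold either way. Within 1.5-fold lay 41 of 43 for FKl/l MCK+ against FKl/l and 40 of 43 for FKl/l MHC+ against FKl/l or against MHC CRE Only. Within 1.2-fold lay 24, 19 and 16 genes in the same order. The median coefficient of variation within a genotype and batch was 7.41%. No gene had groups without overlap in any comparison, while 0.225% (FKl/l MCK+ against FKl/l), 1.12% (FKl/l MHC+ against FKl/l), 0.805% (FKl/l MHC+ against MHC CRE Only), 0.624% (MHC CRE Only against FKl/l) and 1.19% (FKl/l MHC+ against FKl/l MCK+) of all genes did.

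**Figure D2:**
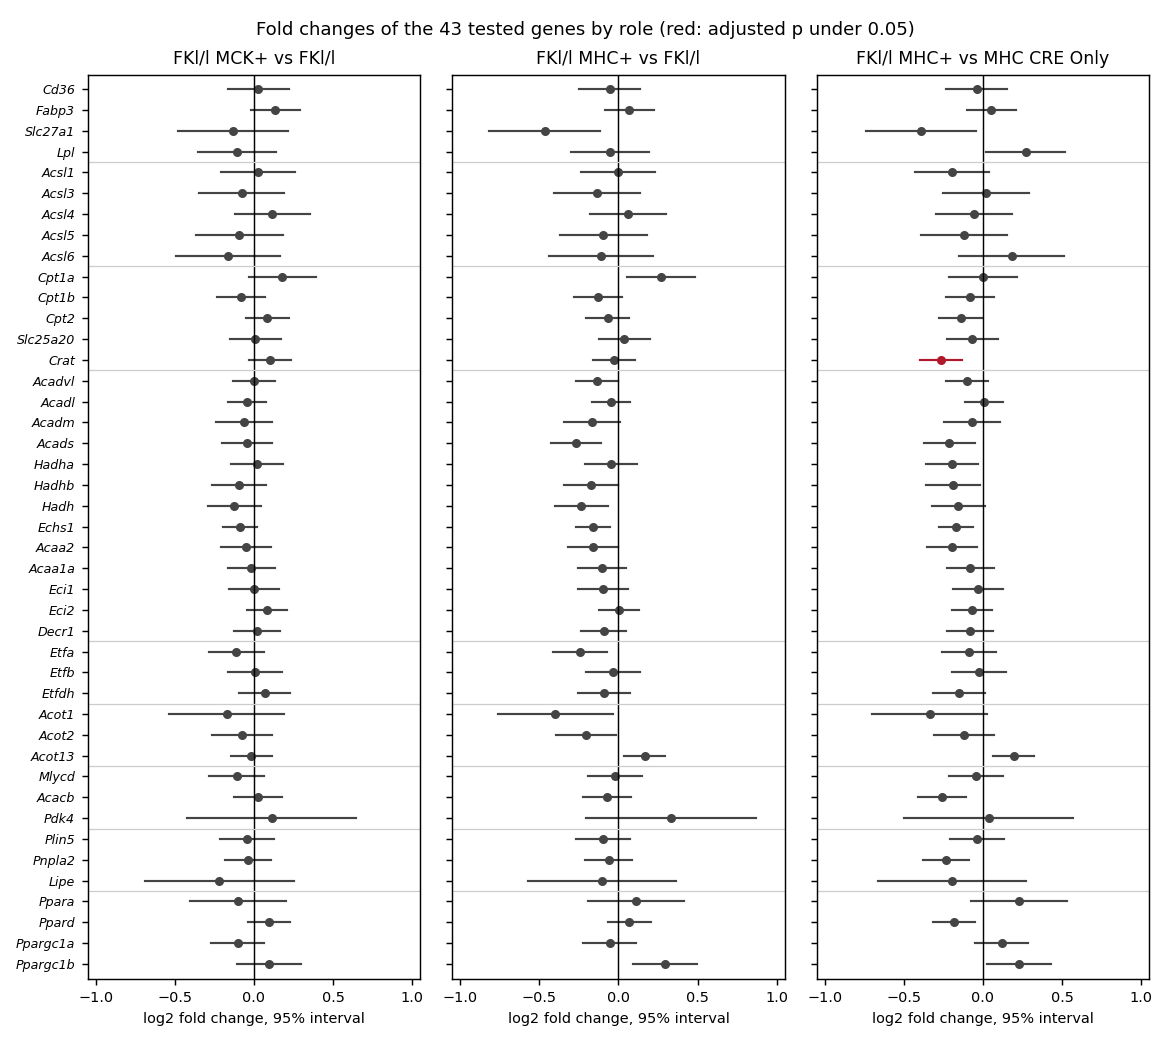
Log2 fold change (point) and 95% interval (line) of the 43 tested genes, in the order of their roles from uptake at the top to transcriptional control at the bottom, in 3 comparisons; red marks an adjusted p under 0.05. Most intervals cross 0, and Crat in FKl/l MHC+ against MHC CRE Only is the red one.

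Among the genes of uptake, no member passed in a genotype comparison. Fabp3 lay between 1891 and 2331 CPM in FKl/l (median 2174), 1922 and 2574 in MHC CRE Only (median 2103), 2100.2 and 2549.6 in FKl/l MCK+ (median 2385) and 1928 and 2429 in FKl/l MHC+ (median 2311). The 4 ranges all overlapped one another, and the log2 fold change was 0.13 in FKl/l MCK+ against FKl/l (SE 0.0757, adjusted p = 0.971). Lpl, which releases fatty acids from lipoproteins, lay between 3399 and 4854 CPM in FKl/l (median 3613), 2289.7 and 4559.6 in MHC CRE Only (median 2791), 2704 and 5077 in FKl/l MCK+ (median 3293) and 2809.6 and 4879.9 in FKl/l MHC+ (median 3868). Its lowest library was the one labelled MHC CRE Only 1-3. MHC CRE Only against FKl/l gave -0.32 (SE 0.121, adjusted p = 0.249). Slc27a1, a fatty acid transport protein, had the most negative value of the 43 in FKl/l MHC+ against FKl/l, -0.47 (SE 0.168, adjusted p = 0.176), with 67.2 to 105 CPM (median 80.6) against 73.1 to 187 (median 102). The highest of these, 187 CPM, was FKl/l 1-3. Cd36, the membrane fatty acid translocase, had medians of 713, 671, 703 and 658 CPM in FKl/l, MHC CRE Only, FKl/l MCK+ and FKl/l MHC+, with log2 fold changes between -0.08 and 0.03 in the 5 comparisons.

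The 5 acyl-CoA synthetases, which activate fatty acids, had log2 fold changes between -0.17 (Acsl6) and 0.12 (Acsl4) in FKl/l MCK+ against FKl/l and between -0.13 (Acsl3) and 0.06 (Acsl4) in FKl/l MHC+ against FKl/l. None had an unadjusted p under 0.05 in any genotype comparison.

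Of the carnitine shuttle, Crat was the gene that passed. Crat, carnitine acetyltransferase, moves acetyl groups between CoA and carnitine. It lay between 282 and 371 CPM in FKl/l MHC+ (median 312), 361 and 417 in MHC CRE Only (median 383), 271 and 363 in FKl/l (median 334) and 304 and 380.3 in FKl/l MCK+ (median 359). FKl/l MHC+ and MHC CRE Only overlapped only through FKl/l MHC+ 2-1, the highest of its genotype. The mean was 322 ± 33.9 in FKl/l MHC+ and 384 ± 19.9 in MHC CRE Only (SD, n = 6), a log2 fold change of -0.26 (SE 0.0655, adjusted p = 0.0314), or 0.833-fold. MHC CRE Only was above FKl/l by 0.24 (SE 0.0655, adjusted p = 0.128), and FKl/l MHC+ differed from FKl/l by -0.03. Within batches, the value was -0.37 in batch 1 alone (adjusted p = 0.110) and -0.13 in batch 2 alone (adjusted p = 0.194). The call was lost when any of 7 libraries was left out, at adjusted p = 0.0676 without MHC CRE Only 1-1, 0.0533 without MHC CRE Only 1-2, 0.0575 without the library labelled MHC CRE Only 1-3, 0.0531 without FKl/l MHC+ 1-1, 0.0719 without FKl/l MHC+ 1-2, 0.0947 without FKl/l MHC+ 1-3 and 0.0880 without FKl/l MHC+ 2-3. Without the 3 libraries that stand apart together it held at 0.0388. It was also lost with no low-count filter (0.0577), with no batch term (0.239), with only the compared groups in the fit (0.0651) and against a minimum fold of 1.2. The gene overlaps Dolpp1 and the antisense gene Gm16323 on the opposite strand (chr2:30400471-30415813, GENCODE M21 on GRCm38), and the strand setting of the counting is not given in the sources used here.

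The other shuttle genes did not pass. Cpt1a, which makes acylcarnitine at the outer membrane, lay between 23.1 and 40.7 CPM in FKl/l (median 34.7), 31.5 and 50.2 in MHC CRE Only (median 38.4), 32.7 and 44.9 in FKl/l MCK+ (median 37.4) and 35.6 and 42.4 in FKl/l MHC+ (median 40.6). Each of the 3 Cre genotypes had a higher median than FKl/l, with log2 fold changes of 0.18 for FKl/l MCK+ (SE 0.104, adjusted p = 0.974), 0.27 for FKl/l MHC+ (SE 0.104, adjusted p = 0.201) and 0.27 for MHC CRE Only (SE 0.104, adjusted p = 0.261). Cpt2, which re-forms acyl-CoA inside the mitochondrion, lay between 129 and 163 CPM in FKl/l (median 148), 148 and 161 in MHC CRE Only (median 154), 124 and 181 in FKl/l MCK+ (median 159.6) and 115 and 158 in FKl/l MHC+ (median 142). Its value was -0.15 in FKl/l MHC+ against FKl/l MCK+ (SE 0.0662, adjusted p = 0.262). Cpt1b, the main form in heart muscle, had -0.08 in FKl/l MCK+ and -0.13 in FKl/l MHC+ against FKl/l. Slc25a20, the carnitine-acylcarnitine translocase, had 0.01 and 0.04.

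The 13 beta-oxidation genes had mostly negative values in FKl/l MHC+, though none was called. Against FKl/l 12 of 13 were negative, with a median of -0.13 and 6 at an unadjusted p under 0.05. Within batches, 10 of 13 were negative in batch 1 and 13 in batch 2. Against MHC CRE Only 12 of 13 were negative, with a median of -0.10 and 5 under 0.05, but within batches this was 11 of 13 in batch 1 (median -0.20) and 7 of 13 in batch 2 (median -0.10), and the batches differed by the interaction test for Acadm and Hadhb. In FKl/l MCK+ against FKl/l 8 of 13 were negative, with a median of -0.04 and 0 under 0.05. Of all genes, 50.8% were negative in FKl/l MHC+ against FKl/l, 53.7% against MHC CRE Only and 48.4% in FKl/l MCK+ against FKl/l. The genes were measured in the same libraries, so their signs are not independent. Acads, the short-chain acyl-CoA dehydrogenase, had the lowest value of the group in FKl/l MHC+. It lay between 110.3 and 145 CPM in FKl/l MHC+ (median 128), 136 and 175 in FKl/l (median 148), 121 and 166 in MHC CRE Only (median 149) and 133 and 163 in FKl/l MCK+ (median 148). The medians of the 3 other genotypes were nearly equal. The log2 fold change of Acads was -0.27 against FKl/l (SE 0.0779, adjusted p = 0.0736), -0.21 against MHC CRE Only (SE 0.0778, adjusted p = 0.158) and -0.22 against FKl/l MCK+ (SE 0.0778, adjusted p = 0.142). Echs1, the short-chain enoyl-CoA hydratase, lay between 141 and 187 CPM in FKl/l MHC+ (median 159.7), 170.2 and 189 in FKl/l (median 183), 167 and 196 in MHC CRE Only (median 180.0) and 154 and 189.7 in FKl/l MCK+ (median 169). Its value was -0.16 in FKl/l MHC+ against FKl/l (SE 0.0526, adjusted p = 0.116), -0.17 against MHC CRE Only (SE 0.0526, adjusted p = 0.0901) and -0.09 in FKl/l MCK+ against FKl/l (SE 0.0526, adjusted p = 0.974). Hadh, the short-chain hydroxyacyl-CoA dehydrogenase, had -0.23 in FKl/l MHC+ against FKl/l (SE 0.0810, adjusted p = 0.144). Acadm, Acadl and Acadvl, the medium-, long- and very long-chain dehydrogenases, had -0.17, -0.05 and -0.13. Hadha and Hadhb, the subunits of the trifunctional protein, had -0.04 and -0.17.

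The count of genes called in FKl/l MHC+ against FKl/l moved when single libraries were left out. It was 1 without FKl/l 1-1 (Ppargc1b, adjusted p = 0.0484), 1 without the library labelled MHC CRE Only 1-3 (Acads, 0.0374), 1 without FKl/l MHC+ 2-1 (Acads, 0.0399) and 2 without FKl/l MHC+ 2-2 (Etfa, 0.0126, and Ppargc1b, 0.0360). Without the 3 libraries that stand apart it was 2, Acads lower (0.0249) and Ppargc1b higher (0.0276). In FKl/l MHC+ against MHC CRE Only the count rose to 2 without MHC CRE Only 2-3 and to 2 without FKl/l MCK+ 1-2 (Crat and Acacb), and to 3 without FKl/l MHC+ 2-1 (Crat, Echs1 and Pnpla2). With all 24 libraries, 1.71% of all genes were called against FKl/l and 1.87% against MHC CRE Only. The share of all genes in the reduced fits is not given here, so these counts do not set the members apart from other genes.

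Of the electron transfer genes, Etfa, the α subunit of electron transfer flavoprotein, had -0.24 in FKl/l MHC+ against FKl/l (SE 0.0836, adjusted p = 0.139). Its range in FKl/l MHC+ was wide, 165 to 293 CPM (median 198), against 203 to 277 (median 254) in FKl/l, and its highest library was FKl/l MHC+ 2-2. Etfb had -0.04 and Etfdh, the oxidoreductase that passes electrons to ubiquinone, -0.09 in the same comparison.

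The thioesterases, which split acyl-CoA, had values of both signs. Acot13 lay between 116 and 166 CPM in FKl/l MHC+ (median 145), 115 and 151 in FKl/l (median 120.2), 107 and 151 in MHC CRE Only (median 121) and 113 and 140.2 in FKl/l MCK+ (median 128). FKl/l MHC+ held the highest library, with log2 fold changes of 0.17 against FKl/l (SE 0.0633, adjusted p = 0.193), 0.19 against MHC CRE Only (SE 0.0633, adjusted p = 0.105) and 0.18 against FKl/l MCK+ (SE 0.0633, adjusted p = 0.143). Acot1 and Acot2, a cytosolic and a mitochondrial thioesterase, had -0.40 (SE 0.175, adjusted p = 0.277) and -0.20 (SE 0.0923, adjusted p = 0.293) in FKl/l MHC+ against FKl/l. They are close copies on chromosome 12, so the division of reads between them is uncertain.

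The genes that set the malonyl-CoA level and the choice between pyruvate and fatty acid did not pass. Acacb, the mitochondrial acetyl-CoA carboxylase, lay between 225 and 292 CPM in FKl/l MHC+ (median 257), 279 and 327 in MHC CRE Only (median 305), 214 and 334 in FKl/l (median 268) and 208 and 322 in FKl/l MCK+ (median 285). FKl/l MHC+ lay below MHC CRE Only except for the overlap from 279 to 292 CPM, with -0.26 (SE 0.0738, adjusted p = 0.0642), and DESeq2 called it at 0.0342. Against FKl/l the value of FKl/l MHC+ was -0.07. MHC CRE Only against FKl/l gave 0.40 in batch 1 and -0.04 in batch 2 (adjusted p = 0.0296 by the interaction test). Pdk4, the kinase that shuts off pyruvate dehydrogenase, had 0.33 in FKl/l MHC+ against FKl/l, with wide ranges of 175 to 451 CPM (median 311) and 119 to 361 (median 252). Mlycd, malonyl-CoA decarboxylase, had -0.02.

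Among the lipid droplet genes, Pnpla2, adipose triglyceride lipase, lay between 316 and 414 CPM in FKl/l MHC+ (median 374), 401 and 463 in MHC CRE Only (median 439), 342 and 458 in FKl/l (median 377) and 347 and 398 in FKl/l MCK+ (median 380.3). MHC CRE Only had the highest median. FKl/l MHC+ against MHC CRE Only gave -0.23 (SE 0.0719, adjusted p = 0.0856). Lipe, hormone-sensitive lipase, had -0.22 in FKl/l MCK+ and -0.10 in FKl/l MHC+ against FKl/l, with 50.0 to 102 CPM in FKl/l. The 11 adipocyte markers had median log2 fold changes of -0.94 and -0.66 in those comparisons, with none called by edgeR, and their summed level lay between 314 and 781 CPM in FKl/l, 275 and 735.5 in MHC CRE Only, 230 and 584 in FKl/l MCK+ and 231 and 611 in FKl/l MHC+. None of the 11 was at 0 in all libraries of a genotype. Their part in the values of Lipe, Pnpla2 and Lpl was not tested.

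Of the transcriptional regulators, Ppargc1b, which encodes PGC-1β, lay between 38.2 and 51.0 CPM in FKl/l MHC+ (median 49.1), 29.0 and 45.1 in FKl/l (median 39.5), 31.5 and 51.7 in MHC CRE Only (median 40.1) and 35.9 and 45.1 in FKl/l MCK+ (median 42.8). FKl/l MHC+ had the highest median, with 0.30 against FKl/l (SE 0.0986, adjusted p = 0.126) and 0.23 against MHC CRE Only (SE 0.0987, adjusted p = 0.250). Ppard, the receptor PPARδ, lay between 28.6 and 41.6 CPM in MHC CRE Only (median 37.2), 24.5 and 36.4 in FKl/l (median 30.1), 24.8 and 39.1 in FKl/l MCK+ (median 31.8) and 26.8 and 36.2 in FKl/l MHC+ (median 31.7). MHC CRE Only stood highest, 0.25 above FKl/l (SE 0.0651, adjusted p = 0.104). Ppara had -0.10 and 0.11 and Ppargc1a, which encodes PGC-1α, -0.10 and -0.06 in FKl/l MCK+ and FKl/l MHC+ against FKl/l.

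**Figure D3:**
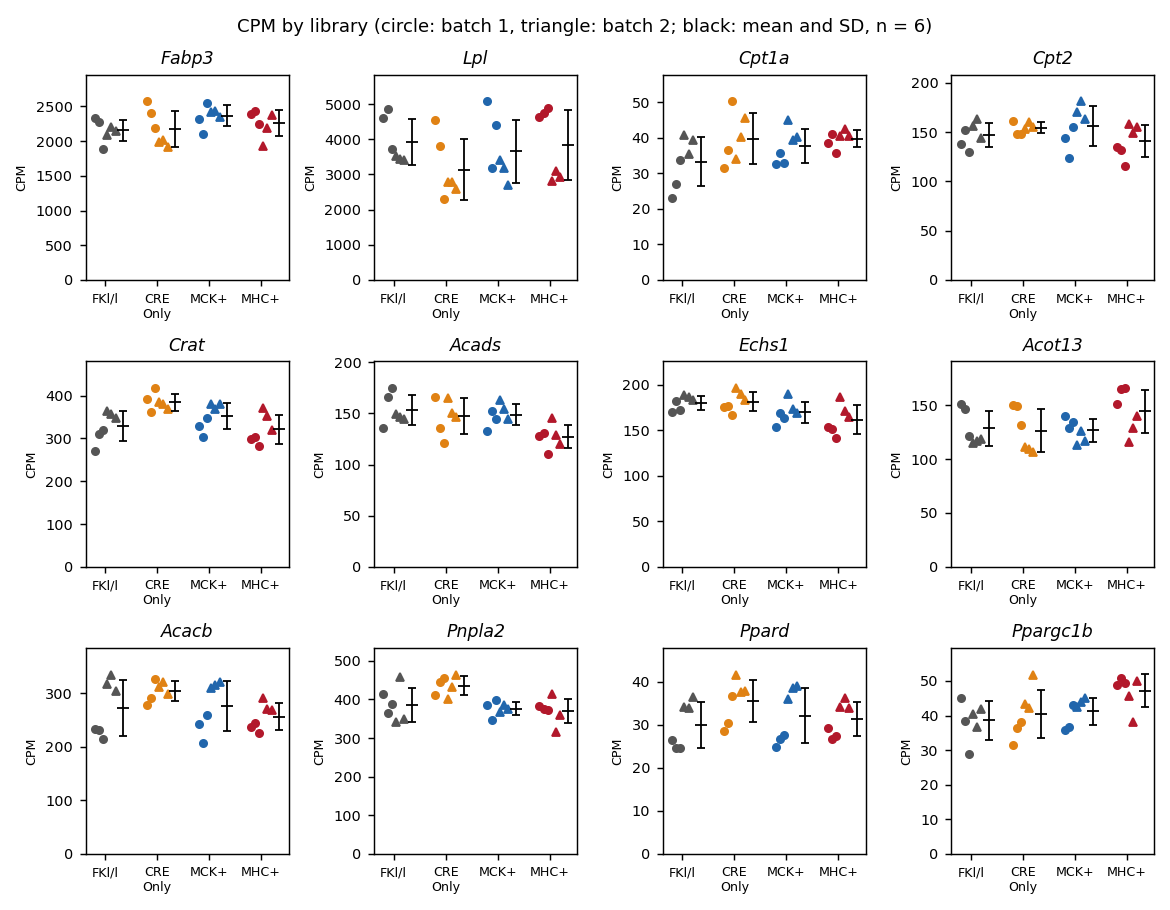
CPM of 12 genes in each library by genotype (circles batch 1, triangles batch 2), with the mean and SD of 6 libraries in black; axes start at 0. The genotypes set against each other overlap in every panel, and in Crat, Echs1, Acot13, Acacb and Ppard the batches separate within most or all genotypes.

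In MHC CRE Only against FKl/l, edgeR called no member (0.0437% of all genes were called), 7 had an unadjusted p under 0.05 (12.9% of all genes did), DESeq2 called 2 (Crat, adjusted p = 0.0161, and Ppard, 0.0164, both higher, with 1.29% of all genes called) and limma voom none. The median of the 43 was -0.01. In FKl/l MHC+ against FKl/l MCK+, none was called by edgeR, DESeq2 or limma voom (2.15% of all genes were called by edgeR and 3.61% by DESeq2), 4 had an unadjusted p under 0.05 (15.4% of all genes did), and the median was -0.06. All 13 beta-oxidation genes had negative values there, between -0.22 (Acads) and -0.00 (Acadl), with a median of -0.10 and 2 at an unadjusted p under 0.05. Within batches, 10 of 13 were negative in batch 1 and 10 in batch 2, and 51.7% of all genes were negative in the fit of both batches. Of 9 endothelial markers 6 were called lower in the same comparison, and their summed level lay between 659 and 812 CPM in FKl/l MHC+ and 792 and 988 in FKl/l MCK+. The part of the endothelial cells in the fatty acid values was not tested.

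The comparisons that use MHC CRE Only differed between batches. The median of the 43 genes in FKl/l MHC+ against MHC CRE Only was -0.20 in batch 1 and 0.05 in batch 2, and in MHC CRE Only against FKl/l it was 0.08 and -0.10. The interaction of genotype and batch was called for 5 members in the former (3.07% of all genes were called) and for 4 in the latter (5.57%). Hadhb, the thiolase subunit of the trifunctional protein, is given as an example from the 5 called in the former. In batch 1 it had 667, 661 and 714 CPM in MHC CRE Only and 511, 484 and 467 in FKl/l MHC+. In batch 2 it had 693, 768 and 718 against 749.7, 851 and 733. The log2 fold changes were -0.48 and 0.10 (adjusted p of the difference = 0.0149). Acsl1, the main synthetase, had -0.55 in batch 1 and 0.20 in batch 2 (adjusted p = 0.0127), Acadm -0.37 and 0.23 (0.0156), Cd36 -0.34 and 0.27 (0.0269) and Acsl4 -0.44 and 0.27 (0.0353). In MHC CRE Only against FKl/l, Acsl1 had 0.55 and -0.21 (0.0192), Acsl6 0.16 and -0.78 (0.0289), Acacb 0.40 and -0.04 (0.0296) and Etfdh 0.27 and -0.17 (0.0395). In the other comparisons edgeR called the interaction for no member. Of all genes it called 0% in FKl/l MCK+ against FKl/l, 0.00624% in FKl/l MHC+ against FKl/l and 0.0187% in FKl/l MHC+ against FKl/l MCK+. In the same order 0, 7 and 7 members had an unadjusted p under 0.05. In FKl/l MHC+ against MHC CRE Only 17 members did, and in MHC CRE Only against FKl/l 16. The share of all genes under that p is not given here, so these counts do not set the members apart from other genes. Batch 1 holds the library labelled MHC CRE Only 1-3, whose part in the differences was not tested.

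**Figure D4:**
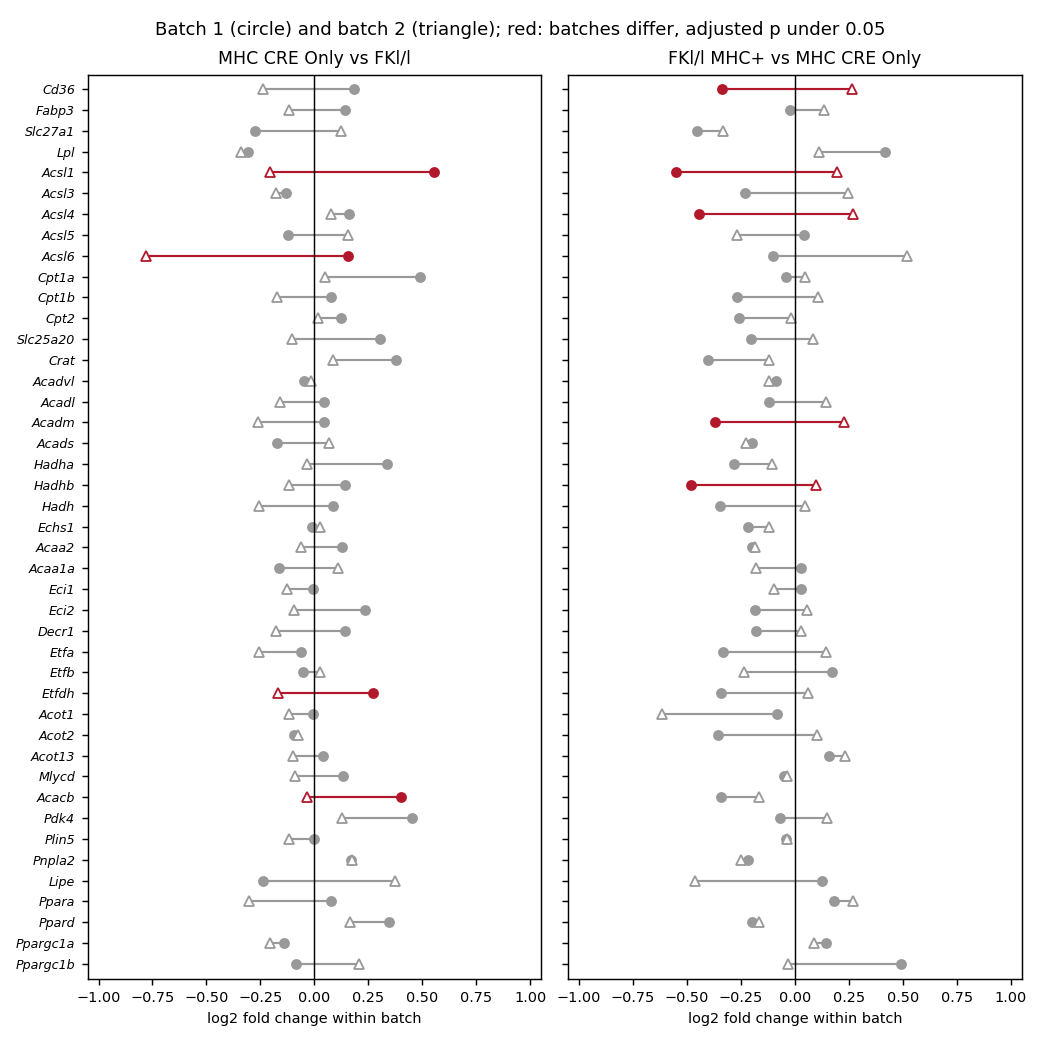
Log2 fold change of each gene within batch 1 (filled circle) and batch 2 (open triangle) in the 2 comparisons that use MHC CRE Only; red marks an interaction with adjusted p under 0.05. On the right, Cd36, Acsl1, Acsl4, Acadm and Hadhb lie below 0 in batch 1 and above 0 in batch 2.

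More of the genes were called between the batches, with 12 libraries a side, than between any of the genotypes compared. Of the 43 genes 24 were called between batch 2 and batch 1, 18 higher and 6 lower in batch 2 (38.4% of all genes were called), with a median of 0.11 against 0.02 for all genes. With total counts in place of TMM scaling the split was 31 higher and 4 lower, and the median of all genes moved to 0.20. No member had batches without overlap (1.5% of all genes did). Acsl1 lay between 268 and 544 CPM in the 12 libraries of batch 1 (median 327) and 439 and 553 in the 12 of batch 2 (median 523), a log2 fold change of 0.56 (SE 0.0808, adjusted p = 4.22e-06). Ppard lay between 24.5 and 36.8 CPM (median 27.0) and 33.8 and 41.6 (median 36.3), a value of 0.40 (SE 0.0461, adjusted p = 1.22e-07). In batch 1 the highest library of both genes was the one labelled MHC CRE Only 1-3. Pdk4 was also higher in batch 2, by 0.58 (SE 0.182, adjusted p = 0.0152), as were Acsl4 by 0.52 (SE 0.0828, adjusted p = 1.51e-05) and Hadhb by 0.37 (SE 0.0591, adjusted p = 1.21e-05). Lpl was lower in batch 2, with 2591 to 3510.3 CPM (median 3010) against 2289.7 to 5077 (median 4586), a value of -0.47 (SE 0.0859, adjusted p = 8.66e-05). Etfb (-0.34), Ppargc1a (-0.33), Acot13 (-0.29), Eci2 (-0.17) and Acaa1a (-0.16), the last 2 a peroxisomal and mitochondrial isomerase and a peroxisomal thiolase, were lower too. Mitochondrially encoded genes took 32.0 to 35.1% of counts in batch 1 and 26.3 to 29.1% in batch 2, as means of a genotype. The part of these in the batch difference was not tested. The labels do not say what a batch is.

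**Figure D5:**
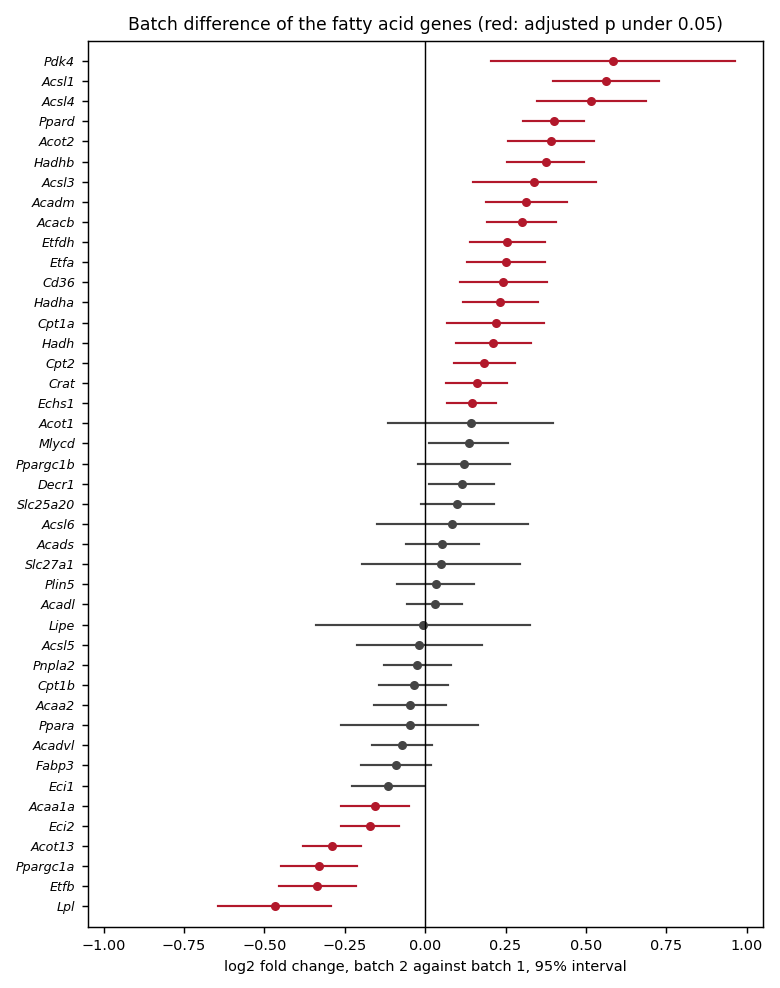
Log2 fold change of batch 2 against batch 1 (point) with its 95% interval (line) for the 43 genes, in order of size; red marks an adjusted p under 0.05. At the top Pdk4 is 0.58 and at the bottom Lpl is -0.47.

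A wider list of 94 other genes of fatty acid and lipid handling held 88 that were tested. Ucp2, a mitochondrial carrier protein, was higher in FKl/l MHC+ than in each other genotype. It lay between 195 and 281 CPM in FKl/l MHC+ (median 233), 91.8 and 164 in FKl/l (median 120.3), 137 and 223 in MHC CRE Only (median 145) and 125 and 186 in FKl/l MCK+ (median 163). FKl/l MHC+ lay above FKl/l and FKl/l MCK+ without overlap, and overlapped MHC CRE Only. The log2 fold change was 0.97 against FKl/l (SE 0.0910, adjusted p = 1.28e-07), 0.56 against MHC CRE Only (SE 0.0903, adjusted p = 0.000969) and 0.60 against FKl/l MCK+ (SE 0.0904, adjusted p = 0.000472). Cav1, a coat protein of caveolae that endothelial cells also make, was lower in FKl/l MHC+ than in FKl/l MCK+, with -0.27 (SE 0.0610, adjusted p = 0.0170). Its levels lay between 130 and 181 CPM (median 164) and 158 and 228 (median 189). No other gene of the list was called by edgeR in the 5 comparisons, so that 0 to 2.27% of the list was called, against 0.0437 to 2.15% of all genes. Between 6 and 17 of the 88 had an unadjusted p under 0.05, as did 5.24 to 15.8% of all genes. Between batches 52 of 88 were called (59.1%, against 38.4% of all genes), 42 higher and 10 lower in batch 2.

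The authors' deposited tables list 43 of the genes in each of the 5 comparisons, and in the authors' deposited tables no adjusted p of theirs is under 0.05. Few of all 16363 rows are under 0.05 there, with 2 in FKl/l MCK+ against FKl/l and 23 in FKl/l MHC+ against FKl/l. FKl/l MHC+ against MHC CRE Only has 11, MHC CRE Only against FKl/l 1 and FKl/l MHC+ against FKl/l MCK+ 14. Those tables give a test statistic of 0 to every gene with a log2 fold change under 0.263 in size.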

How the data were processed

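RNA from 24 whole-heart libraries was measured by sequencing. The authors deposited whole-number, unscaled counts for each gene row. The build was mm10, and RSEM, STAR, Trim Galore, FastQC and bcl2fastq 2.17 are named, per the submitters' processing notes. For the annotation, the strand setting and any rounding of RSEM estimates: not given in the sources used here. Estimates of that kind divide reads between similar genes. Per the file headers, the authors' deposited comparison tables hold log2 fold changes and mean log2 expression with a statistic (score), p-values and adjusted p-values.

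Of 56384 rows, 3660 are named by a transcript (0.873 to 4.28% of counts, none of a member gene) and were left out. The members and the gene lists were chosen with earlier results of these data known. Tests used the quasi-likelihood F-test of edgeR 4.0.16 in R 4.3.3, with TMM scaling, filterByExpr by genotype (16018 genes), terms for genotype and batch, 24 libraries in 1 fit and Benjamini-Hochberg adjustment over all genes. The script was tested on simulated data. Levels are given over 6 libraries for genes called in a genotype comparison and for the 3 members with the smallest p in each. Alternatives were DESeq2 1.42.0, limma voom (limma 3.58.1), other scalings and filters, no batch term, a replicate block, a minimum fold, single batches and leaving out libraries. Principal transcripts and positions are those of GENCODE M21, and promoter windows those of RefSeq. The use of principal transcript lengths was chosen after seeing the data.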

Additional observations from a re-analysis of the deposited data

Results flagged for a closer look

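Within genotypes, 6 of 172 groups of 6 libraries held a library far from the others, which is fewer than the 1 in 20 or so that chance gives. The genes share libraries and each group holds both batches, so that rate is only a guide. In 4 of the 6 groups the library was MHC CRE Only 1-1. It had 110.0 CPM for Plin5, a lipid droplet protein (others 77.4 to 86.8), 293 for Hadh (others 247 to 260.0), 318 for Decr1, the dienoyl-CoA reductase (others 254 to 269), and 1187 for Acaa2 (others 845 to 963). In the other 2 groups it was FKl/l 1-3, with 974 CPM for Acadvl (others 744 to 824) and 99.7 for Acaa1a (others 69.4 to 79.1).

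The genotype difference was unequal in the batches for 9 of 215 pairs of gene and comparison, by the interaction test. Of all genes that test called 3.07% in FKl/l MHC+ against MHC CRE Only and 5.57% in MHC CRE Only against FKl/l. In the other comparisons it called 0 to 0.0187% of all genes. In FKl/l MHC+ against MHC CRE Only, the value in batch 2 minus that in batch 1 was 0.60 for Cd36, 0.75 for Acsl1, 0.71 for Acsl4, 0.60 for Acadm and 0.58 for Hadhb, on the log2 scale. In MHC CRE Only against FKl/l it was -0.76 for Acsl1, -0.94 for Acsl6, -0.44 for Etfdh and -0.44 for Acacb. These comparisons share the MHC CRE Only libraries.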

How the results depend on the processing

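Crat in FKl/l MHC+ against MHC CRE Only kept its sign under the alternatives run (-0.37 to -0.13). With batch 2 alone the median of the members turned from -0.08 to 0.03 in FKl/l MHC+ against MHC CRE Only (-0.16 with batch 1 alone), and in MHC CRE Only against FKl/l it was 0.08 with batch 1 alone and -0.09 with batch 2 alone. In FKl/l MHC+ against FKl/l the number of members called, 0, became 2 with DESeq2, 1 with total counts in place of TMM (Hadh), 1 with batch 2 alone (Acot1), 2 without the 3 libraries that stand apart, and 0 to 2 with 1 library left out. In FKl/l MHC+ against MHC CRE Only the number, 1, became 4 with DESeq2 and 2 with total counts. It became 2 with only the groups compared in the fit (Slc27a1 and Acacb). With batch 2 alone it became 4 (Cd36 higher, and Etfb, Acads and Acot1 lower). It became 0 with no low-count filter, no batch term, the minimum fold of 1.2 or batch 1 alone, and 0 to 3 with 1 library left out. In MHC CRE Only against FKl/l the number, 0, became 2 with DESeq2 and 2 with batch 2 alone (Lpl and Acsl6, both lower). Between batches the number, 24, became 4 with the minimum fold of 1.2. DESeq2 also called more of all genes than edgeR. It called 3.45% in FKl/l MHC+ against FKl/l, 3.69% against MHC CRE Only and 1.29% in MHC CRE Only against FKl/l. For the other settings the share of all genes called is not given here, so those counts do not set the members apart from other genes. The cause of these shifts was not tested. In FKl/l MCK+ against FKl/l and FKl/l MHC+ against FKl/l MCK+ the number stayed at 0 under all alternatives run.

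With the replicate block in place of the batch term, the members called in FKl/l MHC+ against MHC CRE Only became 0 (Crat, adjusted p = 0.0543), and the numbers in the other genotype comparisons were the same. Deviations of same-numbered libraries correlated at -0.033 on average over 36 pairs (-0.274 to 0.179, 6 of them over 0.1). With 3 libraries per genotype and batch this is a description. The labels do not say what the number stands for, and a shared origin of same-numbered libraries was not tested. With total counts, 37.4% of all genes had a positive value in FKl/l MHC+ against FKl/l, against 49.2% with TMM, and 35 members had a negative value, against 33. Slc27a6 was too low to test at this depth.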
